A study of Sus scrofa with 57 samples.

Results

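MicroRNA (miRNA) genes encode short hairpin RNAs, and the loci described here are the gene entries whose symbol began with ssc-mir or ssc-let in the RNAseq expression tables, where ssc stands for Sus scrofa. The rule gave 253 genes of the 25285 gene identifiers in the tables, and 9 of them carried a let-7 name. They had 227 different symbols, because 25 symbols stood on more than 1 locus (51 loci in all). Of the 253 loci, 222 were on placed chromosomes of the pig genome Sscrofa10.2, 28 of them on chromosome X, and 31 were on unplaced sequences.

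A miRNA is transcribed as a long primary transcript, often within an intron of a protein-coding gene or together with other miRNAs of a cluster. The nuclease DROSHA with DGCR8 cuts out the hairpin in the nucleus, XPO5 exports it, and DICER1 trims it to the short mature strand that an Argonaute protein holds. The mature strand directs the Argonaute complex to messenger RNAs and lowers their translation and stability. In fat, miR-143, miR-103, miR-107 and miR-378 are known for roles in adipocyte differentiation and lipid metabolism.

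The samples were mature adipocytes, the cells that float after collagenase digestion of retroperitoneal fat, from F2 pigs of a cross of Duroc with Göttingen minipigs, a small breed that becomes obese when fed freely. The lean and obese groups were the extremes of this population, which shared its housing and was fed freely, and the labels name no treatment or engineered allele. RNAseq of ribosome-depleted total RNA covered 5 lean and 5 obese males in 11 libraries, with 2 libraries of obese pig-572 that were averaged. The second of these, library B, is titled as pig-572, but its description in GEO carries another number. Its assignment to this pig follows the title. Captured methylated DNA (mDNAcap) was compared by the authors between 11 lean and 11 obese libraries of males and females, and bisulfite sequencing of CpG-rich fragments (RRBS) was given as the authors' mean of each group. A female labelled obese in GEO stood on the lean side of the authors' mDNAcap comparison. Adipocyte markers were present. Of 12 listed, 7 were found by symbol, while ADIPOQ, CIDEC, DGAT2, FABP4 and LPL were not. All 7 had a mean of at least 1 FPKM (fragments per kilobase of transcript, relative to the mapped fragments of the library). They summed to between 1750 and 2828 FPKM per pig, and CD36 alone was at 837 to 1931 FPKM. Of 10 leukocyte markers found, 1 had a mean of at least 1 FPKM and CD163 was at 0. The leukocyte sum was 3.30 to 6.57 FPKM in lean pigs and 3.53 to 6.75 in obese pigs. Fibroblast and preadipocyte markers summed to 24.0 to 194 FPKM in lean and 47.1 to 196 FPKM in obese pigs, and erythrocyte markers to 13.3 to 81.2 FPKM and 15.9 to 38.2 FPKM, and the part of these cells in the results was not tested. The depth of single libraries cannot be read from FPKM values. Values per pig are FPKM divided by a size factor of the library, except where those of single libraries are given.

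The loci were short. Their length ran from 62 bases to 120 bases with a median of 81, except for an entry named ssc-mir-127 on an unplaced sequence that spanned 3671 bases and enclosed another entry of that name. With at most 10000 bases between neighbours, 97 of the miRNA genes fell into 40 chains and 156 stood alone. The longest chains had 6 members. These were ssc-mir-17 to ssc-mir-92a-1 on chromosome 11 (chr11:66610060-66610841) and ssc-mir-363-2 to ssc-mir-106a on chromosome X (chrX:126199347-126200263), which are related clusters known from cell growth and blood cell development. Of the 253 loci, 83 (32.8%) lay whole within the locus of another gene, and 170 did not. The tables give no strand, so that a containing gene may be read from the other strand.

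To ask which miRNA loci gave a signal in total RNA, the FPKM of each was read in every library. Of the 253 genes, 250 were listed at 0 in all 11 libraries. Only ssc-mir-4332, ssc-mir-126 and ssc-mir-671 were above 0 in at least 1 library (1.19% of the members), and ssc-mir-4332 was the single member above 0 in all 11 libraries. A value of 0 here was shared by other short loci and does not show that a miRNA was absent. Among 2012 other gene loci of up to 120 bases, 148 (7.36%) were above 0 in any library, against 37.1% of the next longer loci of up to 150 bases and 90.0% of loci over 1000 bases. The miRNAs best known from fat were among those at 0. All 36 loci of the adipocyte and metabolism list, which held miR-143, miR-103, miR-107, miR-378, miR-27, miR-30 and miR-29 among others, were at 0 in every library. So were the 9 loci of the blood and immune list, the 7 of the muscle list, the 10 of the nervous tissue list, the 7 of the liver and epithelium list and the 10 of the let-7 family.

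**Figure D1:**
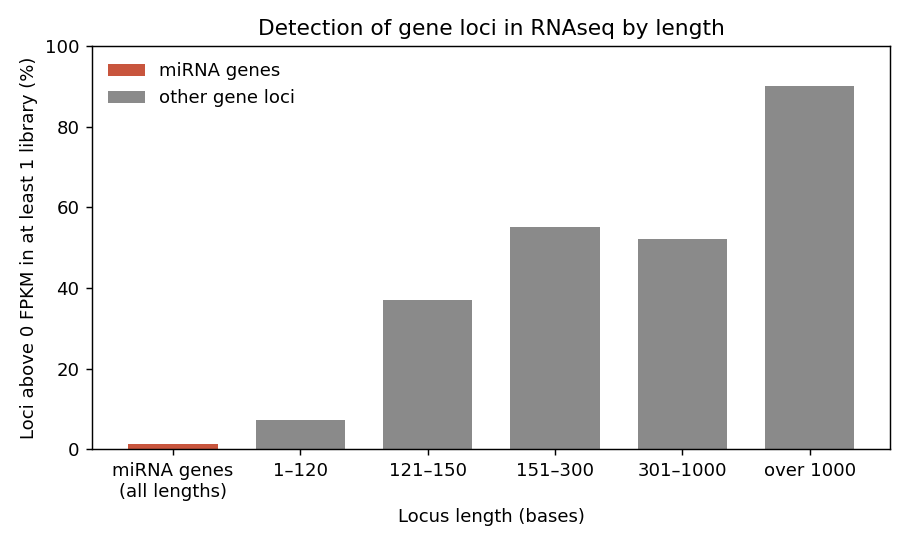
Bars give the percentage of gene loci with an FPKM above 0 in at least 1 of the 11 RNAseq libraries, for the 253 miRNA genes and for other gene loci by locus length in bases. The share was 1.19% for miRNA genes, 7.36% for other loci of up to 120 bases and 90.0% for loci over 1000 bases.

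ssc-mir-4332 (ENSSSCG00000024853, chr6:870446-870551) lies outside any other gene locus. Its FPKM was 509.2 in lean pig-402, 794.7 in pig-407, 952.2 in pig-413, 736.0 in pig-525 and 1591 in pig-577. In obese pigs it was 1320 in pig-433, 769.3 in pig-473, 798.2 in pig-524, 1430 in pig-529, and 1078 and 406.96 in the libraries of pig-572. The groups overlapped over most of their range, and the highest value was that of a lean pig. After scaling, the 5 lean pigs had a mean of 912 FPKM ± 499 (SD) and the 5 obese pigs one of 997 FPKM ± 379, which gave a difference of 0.20 ± 0.37 (SE) in log2(FPKM + 1), with an adjusted p of 0.785 in limma and p = 0.810 in the two-sided exact permutation test. Without lean pig-402 the difference was -0.012. The 95% intervals that cufflinks gave were wide, as in pig-402 with 124.3 to 894.2 FPKM. The estimate for library B of pig-572 had a lower bound of 0.

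Some loci around ssc-mir-4332 had very high RNA values. An entry named 5_8S_rRNA (ENSSSCG00000020149, chr6:872546-872698), the small RNA of the large ribosomal subunit, begins 1994 bases away, and its FPKM ran from 46329 to 196385 over the 11 libraries, with the highest value in library B of pig-572. ENSSSCG00000021356, an unnamed locus 3740 bases from ssc-mir-4332, was above 0 in 7 of the 11 libraries. It reached 74509 FPKM in library B of pig-572, and its next highest value was 6907 FPKM. ENSSSCG00000025162, an unnamed locus 3637 bases away, was above 0 in 10 libraries and reached 12532 FPKM. ENSSSCG00000024460, 7200 bases away, was at 0 in every library. The ribosomal RNA had been depleted before sequencing. The part of the ribosomal locus in the value of ssc-mir-4332 was not tested.

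**Figure D2:**
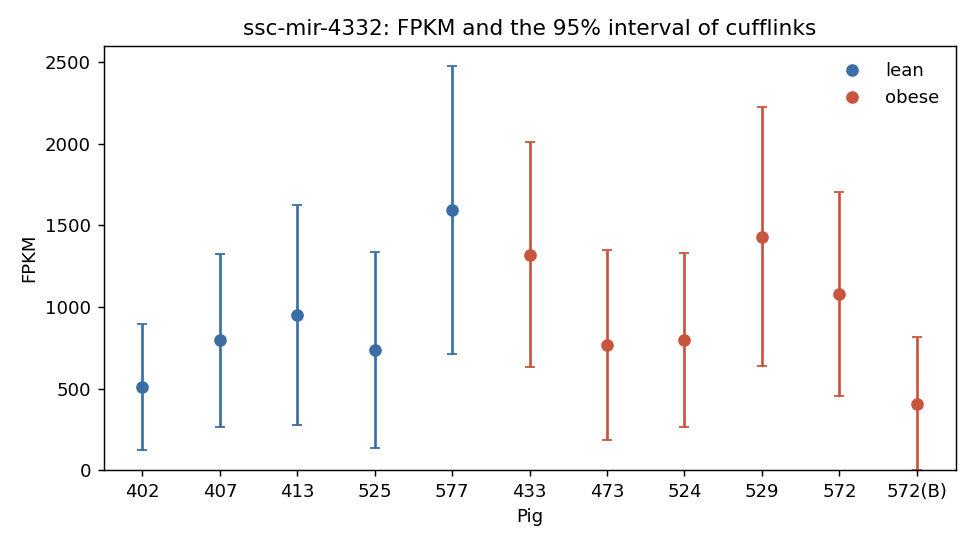
Points give the FPKM of ssc-mir-4332 in each RNAseq library and bars its 95% interval from cufflinks, with lean pigs in blue and obese pigs in red. The intervals of the lean and obese pigs overlapped, and the estimates ran from 406.96 FPKM in library B of pig-572 to 1591 FPKM in lean pig-577.

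The other members above 0 were so in a single library each. ssc-mir-126 (chr1:313734669-313734741), known from endothelial cells, lies in EGFL7, a gene of blood vessel formation. It was listed at 1814 FPKM in library B of pig-572, with an interval from 0 to 5441, and at 0 in the other library of this pig and in all other libraries. Only 1 of 5 obese pigs and 0 of 5 lean pigs were above 0, and without library B it was at 0 throughout. ssc-mir-671 (chr18:6286673-6286790), which lies in CHPF2, was listed at 0.000408 FPKM in pig-524 and at 0 elsewhere. Of the 253 miRNA genes, 2 passed the filter of a mean FPKM of at least 1, and ssc-mir-126 did so through library B of pig-572 alone, so that its test is not used. The other, ssc-mir-4332, had neither an adjusted nor an unadjusted p under 0.05 in limma, where 0.00976% of all 10246 genes tested had the former and 20.4% the latter.

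Since the miRNA loci themselves carried almost no signal, the genes that contain them were described next. The 83 enclosed loci lay in 76 genes, of which 72 had a name. A mean of at least 1 FPKM was found for 47 of these genes, a mean of at least 10 FPKM for 24, and 2 (ATP2B2 with ssc-mir-885 and MEGF6 with ssc-mir-551a) were at 0. The highest was RPL13A, a ribosomal protein gene whose locus holds ssc-mir-150-2, at 504 FPKM ± 116 (SD) in lean and 349 FPKM ± 66.7 in obese pigs. It was followed by CHM, which serves the lipid modification of Rab proteins and holds ssc-mir-361, at 300 FPKM ± 190 and 174 FPKM ± 120. In the muscle list, MIB1 with ssc-mir-133a-2 stood at 16.6 FPKM ± 0.66 in lean and 18.6 FPKM ± 1.08 in obese pigs. MYH7 with ssc-mir-208b had a mean under 1 FPKM. MYH7B with ssc-mir-499 stood at 1.18 FPKM ± 0.51 in lean and 1.45 FPKM ± 0.40 in obese pigs.

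Of the 47 containing genes tested, 0 had an adjusted p under 0.05 in limma, beside 0.00976% of all 10246 genes tested. The lowest adjusted p of a containing gene was 0.131. At an unadjusted p under 0.05 there were 10 genes (21.3%), 6 of them higher and 4 lower in obese pigs, beside 20.4% of all genes tested. The median difference was 0.03 on the log2 scale for the containing genes and 0.01 for all genes. The pigs of the groups did not overlap for 1 of the 47 genes (2.13%), against 4.11% of all genes tested. The share of containing genes was thus near the background on each count. The genes named from here to the end of the paragraphs on containing genes were chosen after their values were seen, except for those that hold a miRNA gene with a methylation region nearby or with an FPKM above 0.

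The 3 PANK genes encode pantothenate kinases, the enzymes of the first step of coenzyme A synthesis, and each holds a member of the miR-103 and miR-107 family. PANK3 (chr16:59904337-59917314), which holds ssc-mir-103-1, was at 281, 123, 34.7, 89.8 and 53.3 FPKM in lean pig-402, pig-407, pig-413, pig-525 and pig-577. In obese pig-433, pig-473, pig-524, pig-529 and pig-572 it was at 189, 267, 278, 216 and 185 FPKM. All 5 obese pigs were above 4 of the 5 lean pigs, and lean pig-402 was above all obese pigs. The difference was 1.31 ± 0.47 (SE) on the log2 scale with an adjusted p of 0.183 in limma. Without pig-402 it was 1.72 and the adjusted p was 0.0463, in a fit in which 1.44% of all genes had an adjusted p under 0.05. PANK2 with ssc-mir-103-2 was at 2.08 FPKM ± 0.25 (SD) in lean and 2.13 FPKM ± 0.17 in obese pigs, and PANK1 with ssc-mir-107 was below the filter at 0.415 FPKM and 0.659 FPKM.

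CTDSP2 and VMP1 also contain miRNAs of the adipocyte list and had lower means in the obese group. CTDSP2, a phosphatase gene on an unplaced sequence, holds ssc-mir-26a and was at 20.1, 29.3, 45.9, 22.4 and 38.1 FPKM in the lean pigs and at 20.8, 16.2, 11.4, 19.3 and 13.8 FPKM in the obese pigs, in the order of pigs given above. The values of the groups overlapped at a single obese pig. The difference was -0.86 ± 0.24 (SE) on the log2 scale, with an adjusted p of 0.131 in limma. VMP1, an autophagy gene that holds ssc-mir-21, had means of 22.9 FPKM ± 13.97 (SD) in lean and 11.7 FPKM ± 7.68 in obese pigs, with a log2 difference of -0.91 ± 0.43 (SE) and an adjusted p of 0.253.

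RCL1, a gene of ribosomal RNA processing, holds ssc-mir-101-1 and was the gene of this set without overlap. Its lean values were 8.89, 8.47, 13.2, 9.02 and 11.5 FPKM, and its obese values were 7.14, 5.60, 7.28, 7.82 and 7.58 FPKM. The log2 difference was -0.46 ± 0.13 (SE), with an adjusted p of 0.139 in limma. WDR82, which holds ssc-let-7g, differed by -0.25 ± 0.10 (SE) with an adjusted p of 0.212, and RPL13A by -0.52 ± 0.20 (SE) with an adjusted p of 0.201. HUWE1, a ubiquitin ligase gene that holds ssc-mir-98 and ssc-let-7f-1, had means of 13.02 FPKM ± 1.94 (SD) and 13.99 FPKM ± 2.62.

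EGFL7, in which ssc-mir-126 lies, was at 2.40, 3.45, 0.959, 1.84 and 2.99 FPKM in the lean pigs and at 2.66, 4.81, 8.21, 4.48 and 5.12 FPKM in the obese pigs. Obese pig-433 fell within the lean range and the other 4 obese pigs were above it. The log2 difference was 0.86 ± 0.26 (SE) with an adjusted p of 0.152 in limma. EGFL7 is also on the list of endothelial markers, of which 6 of 7 were found and none had a mean of 0. Of the 6, only 2, EGFL7 and PECAM1, had a mean of at least 1 FPKM. Without EGFL7 these markers summed to 1.47 to 11.9 FPKM in lean and 3.38 to 8.59 FPKM in obese pigs, and PECAM1 had means of 5.09 FPKM and 4.98 FPKM. The part of endothelial cells in the value of EGFL7 was not tested, and in bulk RNA more cells of a type and more RNA per cell cannot be told apart.

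Of the other containing genes with a higher obese mean at an unadjusted p, C9ORF5 with ssc-mir-32 resembled PANK3 in that lean pig-402, at 55.8 FPKM, was above every other pig. The other lean pigs were at 14.3 to 23.5 FPKM and the obese pigs at 35.4 to 43.3 FPKM, and the log2 difference of 0.81 ± 0.32 (SE) had an adjusted p of 0.207 with pig-402 and 0.0364 without it. KIAA0930, which holds ssc-mir-1249-2 on chromosome 5, differed by 1.20 ± 0.40 (SE) with an adjusted p of 0.168, and its second locus on an unplaced sequence, with a second ssc-mir-1249-2, by 0.67 ± 0.31 (SE) with an adjusted p of 0.249. The reads of near-identical loci can be split between them, so that both values are uncertain. DNM2, the gene of a vesicle-cutting GTPase that holds ssc-mir-199a-2, differed by 0.43 ± 0.15 (SE) with an adjusted p of 0.182, and DYX1C1-CCPG1 with ssc-mir-628 by 0.36 ± 0.13 (SE) with an adjusted p of 0.184.

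**Figure D3:**
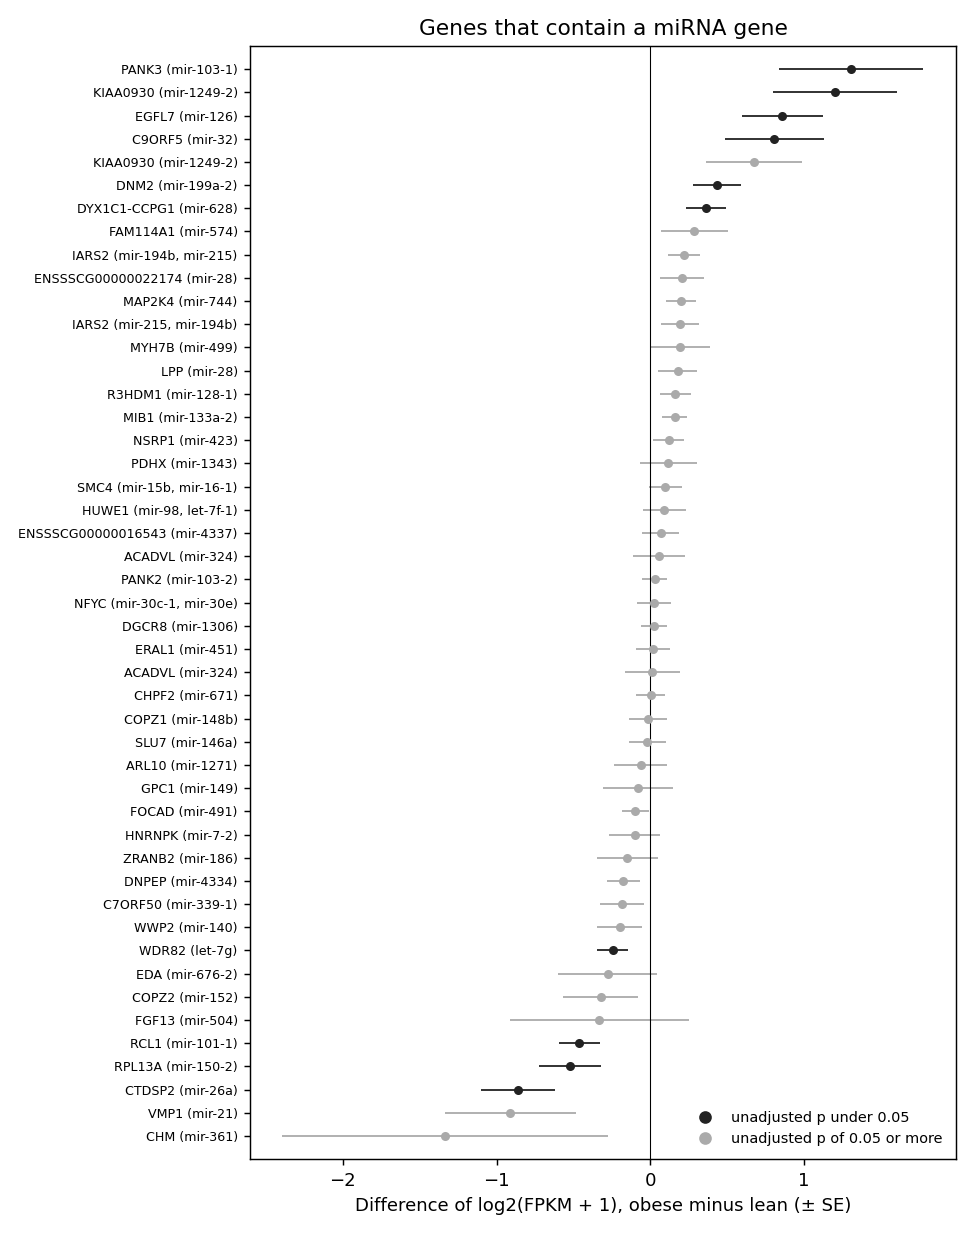
Points give the difference in log2(FPKM + 1), obese minus lean, of the 47 tested genes that contain a miRNA gene (named in brackets), and bars the standard error of limma. The 10 genes with an unadjusted p under 0.05 are black, and none had an adjusted p under 0.05. The values ran from CHM at -1.33 to PANK3 at 1.31.

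Among containing genes with a low signal, GABRE, a GABA receptor subunit gene on chromosome X that holds ssc-mir-224 and ssc-mir-452, was at 0.117 to 0.456 FPKM in lean pigs and at 0 to 0.0456 FPKM in obese pigs. MYH7 was at 0.252 to 0.387 FPKM in lean and 0.00834 to 0.235 FPKM in obese pigs. The groups did not overlap for either gene. They were below the filter and not tested in limma. Each had p = 0.00794 in the exact permutation test, the smallest p that 5 pigs against 5 allow. Groups without overlap always give this p, so that it adds nothing to the lack of overlap. Without a filter, 3 of the 74 containing genes above 0 in some pig had no overlap, beside 3.08% of all genes above 0.

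The genes that make and use miRNAs were above the filter for the most part. Of 50 listed symbols 40 were found, on 42 gene identifiers, and 37 of these were tested. Of these, 0 had an adjusted p under 0.05 in limma, beside 0.00976% of all genes tested. An unadjusted p under 0.05 was found for 8 (21.6%), which is near the 20.4% of all genes. Of the 8, 5 were higher and 3 lower in obese pigs. The pigs of the groups did not separate without overlap for any of the 37 genes, against 4.11% of all genes tested. Their median difference was 0.02 on the log2 scale.

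Among the core enzymes and the Argonaute genes, none had an unadjusted p under 0.05 in limma. DROSHA was at 0.940 FPKM ± 0.096 (SD) in lean and 1.11 FPKM ± 0.20 in obese pigs, and its partner DGCR8, whose own locus holds ssc-mir-1306, at 2.83 FPKM ± 0.32 and 2.89 FPKM ± 0.28. The export factor XPO5 was at 6.44 FPKM ± 1.87 and 6.49 FPKM ± 1.35, and DICER1 at 4.62 FPKM ± 0.29 and 4.62 FPKM ± 0.48. The Argonaute genes EIF2C1 to EIF2C4 had group means between 1.14 FPKM (EIF2C4, obese) and 2.79 FPKM (EIF2C3, obese). LIN28B, which blocks let-7 maturation, was listed at 0 in all pigs.

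Of the 8 genes at an unadjusted p under 0.05, TNRC6B, a scaffold that binds Argonaute, was on 2 identifiers, which differed by 0.39 ± 0.14 and 0.38 ± 0.15 (SE) on the log2 scale with adjusted p of 0.190 and 0.207 in limma. DDX6, a helicase of mRNA repression, was at 26.4 FPKM ± 6.81 (SD) in lean and 37.0 FPKM ± 5.99 in obese pigs, with a log2 difference of 0.50 ± 0.19 (SE) and an adjusted p of 0.201. GEMIN4, which is found with Argonaute, was at 0.740 to 1.09 FPKM in lean and 1.07 to 1.63 FPKM in obese pigs, with an adjusted p of 0.145, the lowest of the list. The cap-binding gene NCBP2 had a log2 difference of 0.26 ± 0.10 (SE). Lower in the obese group were PAN3, of a deadenylase, at -0.34 ± 0.14 (SE), ZCCHC11, a uridyltransferase that acts on let-7 precursors, at -0.32 ± 0.13 (SE), and FMR1, an RNA-binding protein gene, at -0.23 ± 0.09 (SE). The adjusted p of these 4 genes was 0.205 to 0.214. ZCCHC6, a relative of ZCCHC11, had means of 23.2 FPKM ± 7.73 (SD) and 22.7 FPKM ± 7.92.

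To see where methylation differed near miRNA genes, the deposited mDNAcap regions were matched to the loci with at most 10000 bases in between. Of the 7401 regions, 20 lay near 23 of the 253 miRNA genes (9.09%), beside 3512 of 25084 other loci and 5.94% of 2642 other loci under 200 bases. Of the 20, 1 overlapped a miRNA gene, that at ssc-mir-4332. The authors had kept these regions for a difference between the same animals, so that the tests here are a description of them and no independent evidence. Values are normalized counts, which are the reads of a library in a region divided by a constant of that library. The libraries had between 123174 and 1556405 reads in all regions together.

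In 18 of the 20 regions the adjusted p of limma was under 0.05, beside 96.2% of all regions. Of these, 11 were higher and 7 lower in obese pigs, whereas 27.1% of all regions passed as higher and 69.0% as lower. The median log2 difference was 0.49 for the 20 regions and -0.67 for all regions. In the paper's mDNAcap data, higher methylation in obese animals appeared more marked in and near genes, and lower methylation in intergenic sequence. Whether the 20 regions differ from other regions near genes was not tested. The lower calls depended on the scaling. Counts were also scaled by the median of ratios, taken over the regions with reads in every library. With this scaling 13 regions passed as higher and 0 as lower. Of all regions, 28.7% then passed as higher, 10.9% as lower and 39.6% in all. Another scaling, by the average reads in a bin, was added once the values had been seen. It gave 12 higher and 0 lower regions, with 28.3%, 14.9% and 43.2% of all regions. These scalings moved the median of all regions to -0.37 and -0.39. After the deposited normalization a bin held 1.94 ± 0.35 reads (SD) over the 11 lean libraries, against 1.59 ± 0.42 over the 11 obese ones.

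The region without overlap between the groups was that at ssc-mir-324 on chromosome 3 (chr3:139858601-139860300). It lies 3393 bases from the miRNA gene and on DVL2, a gene of Wnt signalling, while ssc-mir-324 itself lies in ACADVL, the very long-chain acyl-CoA dehydrogenase of fatty acid oxidation. Its normalized counts were 25.8, 28.1 and 35.2 (lowest, median and highest of 11) in lean and 36.9, 40.7 and 53.8 in obese libraries. Every obese library was above every lean library, which held for 0.027% of all regions, and 0.149% of all regions had no overlap in either direction. The log2 difference was 0.51 ± 0.11 (SE), with an adjusted p of 0.00849 in limma. ACADVL was at 25.4 FPKM ± 6.15 (SD) in lean and 25.3 FPKM ± 4.35 in obese pigs at the identifier of this locus. A second ssc-mir-324 lies in a second ACADVL locus on chromosome 12, which was at 11.2 FPKM ± 2.72 and 11.6 FPKM ± 2.13. It had 0 mDNAcap regions within 10000 bases. Reads can be split between copies of a locus, so that the RNA values and the counts at both are uncertain.

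The region nearest to a miRNA cluster outside ssc-mir-4332 and ssc-mir-499 was at ssc-mir-195 and ssc-mir-497 (chr12:54717501-54718700), 106 bases from the nearer. Lean libraries ran from 9.13 over a median of 16.5 to 26.9, and obese libraries from 18.2 over 24.7 to 41.4. All 11 obese libraries were above the lean median but the ranges overlapped. The log2 difference was 0.53 ± 0.17 (SE), with an adjusted p of 0.00883. At the cluster of ssc-mir-99b, ssc-let-7e and ssc-mir-125a (chr6:51866301-51867700), whose region lies 7369 bases from the nearest of them, the counts were 21.3, 26.6 and 41.7 in lean and 28.6, 37.5 and 64.3 in obese libraries, with a log2 difference of 0.48 ± 0.14 (SE) and an adjusted p of 0.00849.

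ssc-mir-378-1, of a miRNA known from fat and mitochondrial metabolism, had a region 2668 bases away (chr2:157643101-157644300). The lean counts were 7.75, 10.98 and 15.8 (lowest, median, highest), and the obese counts were 8.25, 17.1 and 24.5. The ranges overlapped, and the log2 difference was 0.60 ± 0.19 (SE) with an adjusted p of 0.00870. The other regions that passed as higher were near ssc-mir-149, ssc-mir-339-1, ssc-mir-429, ssc-mir-1249-2 on chromosome 5, ssc-mir-338, ssc-mir-345-2 and, at 9351 bases, ssc-mir-499. Over the 18 called regions the log2 differences lay between 0.46 and 0.90 in size, the adjusted p between 0.00849 and 0.0214, and the reads of a library in a region between 0 and 134.

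Of the 7 regions lower in obese libraries, 4 are described first and that of ssc-mir-10b after them. At ssc-mir-30e and ssc-mir-30c-1, members of a family known from fat that lie in NFYC, a transcription factor subunit gene, the region (chr6:157483201-157484500) had lean counts of 23.2, 31.9 and 42.7 and obese counts of 14.5, 22.5 and 32.3. The log2 difference was -0.51 ± 0.15 (SE), with an adjusted p of 0.00849, which became -0.20 with an adjusted p of 0.181 with the median of ratios. NFYC was at 2.23 FPKM ± 0.35 (SD) in lean and 2.29 FPKM ± 0.40 in obese pigs. The region at ssc-mir-29c and ssc-mir-29b-2 (chr9:148558301-148559300) had counts of 7.90, 15.7 and 28.3 in lean and 2.91, 8.29 and 23.1 in obese libraries, and its log2 difference of -0.77 ± 0.27 (SE) went from an adjusted p of 0.0120 to 0.0871 with the median of ratios.

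At ssc-mir-148b, which lies in the coatomer gene COPZ1, the region (chr5:20392001-20393900) is also within COPZ1 and 3725 bases from the miRNA gene. Lean counts were 22.4, 37.3 and 50.4, and obese counts 12.2, 22.8 and 31.3. On the log2 scale the difference was -0.59 ± 0.16 (SE) with an adjusted p of 0.00849, and 0.122 with the median of ratios. COPZ1 itself was at 31.2 FPKM ± 4.69 (SD) in lean and 30.6 FPKM ± 2.40 in obese pigs.

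The muscle miRNA ssc-mir-499 in the myosin gene MYH7B had a lower and a higher region. The nearer, 51 bases away (chr17:43571301-43572300), had lean counts of 8.07, 16.0 and 20.7 and obese counts of 2.91, 11.3 and 14.9, with a log2 difference of -0.73 ± 0.24 (SE) and an adjusted p of 0.00926. The other (chr17:43580601-43581800) had lean counts of 13.4, 22.2 and 31.4 and obese counts of 18.8, 31.3 and 53.7, with a log2 difference of 0.51 ± 0.17 (SE) and an adjusted p of 0.00945. The ranges of the groups overlapped in both. With the median of ratios the nearer region had an adjusted p of 0.0826 and the other 0.00157. The remaining lower regions were near ssc-mir-10b, ssc-mir-1224 and ssc-mir-4337.

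At ssc-mir-10b, which lies among the homeobox genes of a cluster that patterns the body axis, the captured region (chr15:91416801-91417800) was 1212 bases away. Its counts were 8.98, 13.7 and 19.85 in lean and 0, 8.18 and 13.03 in obese libraries, so that no obese library was above the lean median while the ranges still overlapped. Lean and obese libraries differed by -0.90 ± 0.33 (SE) on the log2 scale with an adjusted p of 0.0135, and with the median of ratios it was -0.63 with an adjusted p of 0.0865. At ssc-mir-339-1 the region (chr3:733401-734700) is within C7ORF50 and had counts of 5.27, 16.1 and 40.8 in lean and 13.8, 25.3 and 39.2 in obese libraries. The lean range there enclosed the obese range, and the log2 difference of 0.59 ± 0.24 (SE) had an adjusted p of 0.0214, the highest of the called regions. The region at ssc-mir-1249-2 (chr5:1495401-1496400) is within KIAA0930, the gene described above with a higher obese mean, and had counts of 6.29, 11.4 and 23.2 in lean and 11.3, 19.5 and 30.2 in obese libraries. The groups overlapped, with a log2 difference of 0.60 ± 0.22 (SE) and an adjusted p of 0.0140.

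The regions at ssc-mir-4332 differed from all others in level. The region that overlaps it and the 5_8S_rRNA entry (chr6:863701-876800) had normalized counts of 723, 3084 and 8242 in lean and 1370, 5275 and 13185 in obese libraries, and the region 9045 bases away (chr6:856801-861400) had 2313, 3240 and 4244 in lean and 3097, 3632 and 4301 in obese libraries. By mean count they ranked 7 and 10 of the 7401 regions, whose median was 15.5. The ranges of the groups overlapped, and the adjusted p was 0.0702 and 0.370. With the median of ratios it was 0.0347 and 0.0209.

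**Figure D4:**
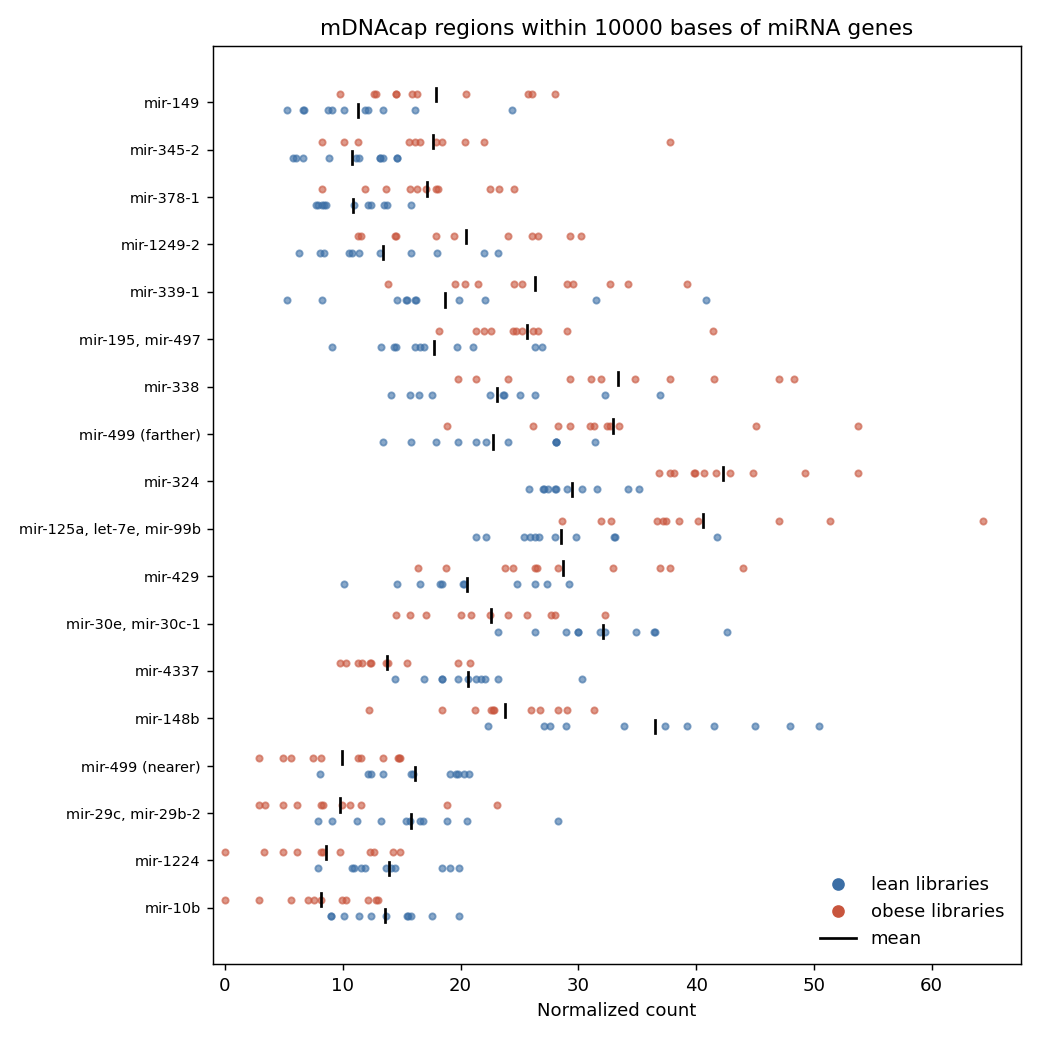
Points give the normalized count of each of the 11 lean (blue) and 11 obese (red) mDNAcap libraries in the 18 regions within 10000 bases of a miRNA gene other than ssc-mir-4332, and black bars the group means. The groups were apart at ssc-mir-324 (highest lean 35.2, lowest obese 36.9) and overlapped in the other 17 regions.

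RRBS gave the methylation level of CpG-rich fragments. The stricter set of 610 regions required values from at least 5 lean and 5 obese pigs, and 9 of them lay within 10000 bases of 15 miRNA genes (5.93% of the members, beside 2.14% of other loci and 0.568% of other loci under 200 bases), and none overlapped one. Of the 15, 6 belong to 1 cluster and share a region. These regions are those that the authors' comparison returned, and the groups differed by 10.4 to 16.6 points in these 9. The paper counts fewer regions than were used here, both in this set and in the wider set below. A region named here may thus not be among those that the paper reports. The values are group means without a spread or depth, so that no test was made. The mean level was higher in obese pigs in 5 of the 9 regions (55.6%) and in 66.1% of all 610.

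The region of the cluster from ssc-mir-363-2 to ssc-mir-106a (chrX:126202252-126202339, 11 CpGs, 1988 bases from the nearest member) had a methylation level of 12.9% in lean and 27.9% in obese pigs. By the labels the lean RRBS samples were 8 males and 2 females. The obese ones were 8 males and 5 females, among them the female on the lean side of the mDNAcap comparison. The paper counts 11 lean and 12 obese animals, so that the authors' RRBS means may hold her as lean. The part of sex in this region on chromosome X was not tested. ssc-mir-196a-2, of a miRNA of the homeobox clusters known from brown fat, had a region 3084 bases away (chr5:19651772-19651871, 12 CpGs) at 6.70% in lean and 20.2% in obese pigs. Higher in obese pigs were also the regions at ssc-mir-181c and ssc-mir-181d (chr2:65555089-65555181), at 6.67% and 18.1%, at ssc-mir-328 in ELMO3 (chr6:25131014-25131081), at 4.84% and 15.3%, and at ssc-mir-769 in CCDC8 (chr6:47712731-47712805), at 10.9% and 22.7%.

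Lower levels in obese pigs were listed at 4 regions. At ssc-mir-339-1 (chr3:731811-731918, within C7ORF50, which also holds the miRNA gene) the level was 76.9% in lean and 60.4% in obese pigs. At ssc-mir-10b, the miRNA of another homeobox cluster (chr15:91425710-91426086), it was 33.9% and 19.0%. At ssc-mir-326 (chr9:10790170-10790257) it was 53.4% and 42.6%, and at ssc-mir-219 (chr7:29747648-29747735), a miRNA known from nervous tissue, 11.6% and 1.19%.

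In the wider set of 2416 regions, which required at least 3 lean and 3 obese pigs, 18 regions lay near 21 miRNA genes, and 6 of them overlapped a region named above. The 21 genes were 8.3% of the members, beside 7.4% of other loci and 2.76% of other loci under 200 bases. ssc-mir-143 and ssc-mir-145, a pair known from adipocyte differentiation and smooth muscle, had a pair of regions. The nearer (chr2:157341715-157341819, 12 CpGs, 2918 bases from ssc-mir-143) was at 12.7% in lean and 33.4% in obese pigs, and the farther (chr2:157337899-157338133) at 13.015% and 27.6%. A region 93 bases from ssc-mir-378-1 (chr2:157640526-157640576) was at 17.7% and 6.87%. ssc-mir-335, in the imprinted gene MEST, had a region (chr18:19341251-19341591) at 48.4% and 33.8%. MEST RNA was near 0, at means of 0.0143 FPKM and 0.00422 FPKM. The regions at ssc-mir-365-2, at ssc-mir-196a-1, at ssc-mir-139, at ssc-mir-212 with ssc-mir-132 and at ssc-mir-497 with ssc-mir-195 were higher in obese pigs. ssc-mir-183 and ssc-mir-182 had a region at 15.1% and 1.20% and another at 2.65% and 13.4%.

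Regions of both methods stood near 6 miRNA genes. At ssc-mir-10b both were lower in obese pigs, with 7909 bases between the regions. At ssc-mir-195 and ssc-mir-497 both were higher, with 9123 bases between the regions. At ssc-mir-339-1 the mDNAcap count was higher and the RRBS level lower in obese pigs, with 1482 bases between the regions, and at ssc-mir-378-1 the same directions stood 2524 bases apart. The mDNAcap region over ssc-mir-4332 held the single RRBS region among these that overlapped an mDNAcap region. There the RRBS level was 39.0% in lean and 27.1% in obese pigs. The mDNAcap difference of that region went the other way, at 0.72 on the log2 scale with an adjusted p of 0.0702 in limma.

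**Figure D5:**
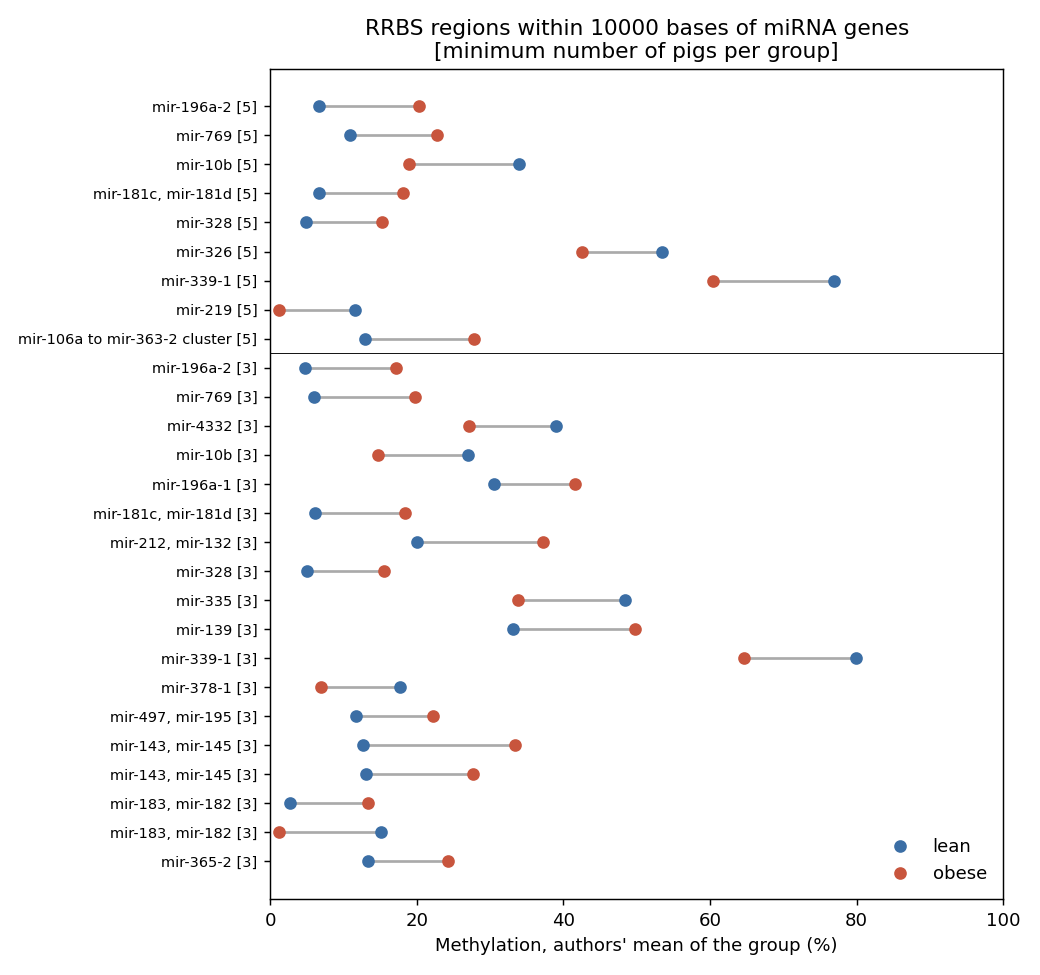
Points give the authors' mean methylation level (%) of lean (blue) and obese (red) pigs in each RRBS region within 10000 bases of a miRNA gene, joined by a line, for the stricter set (at least 5 pigs per group, above the horizontal line) and the wider set (at least 3 pigs per group, below it). Differences were 10.4 to 16.6 points in the former set and 10.4 to 20.7 points in the latter, in both directions.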

How the data were processed

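The authors mapped RNAseq reads of stranded total RNA libraries to Sscrofa10.2 with STAR 2.3.1 and estimated an FPKM value per gene and library with cufflinks 2.2.0 on Ensembl 70. For mDNAcap the authors counted reads in windows with diffReps, and the deposited normalized count is the read count divided by a constant per library. For RRBS the authors mapped reads with Bismark 0.10 and Bowtie2 2.1.0, required at least 5 reads for a methylation level and found regions with metilene, and the deposited fraction is the mean methylation of a group, printed here as percent. Columns of the authors' own comparisons (fold changes, p-values, hotspots) were not used.

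FPKM values were divided by size factors (median of ratios), both libraries of pig-572 gave 1 mean, 9 genes with failed estimates were left out, and the 10246 genes whose mean reached 1 FPKM entered limma 3.58.1 on log2(FPKM + 1) (eBayes with trend, Benjamini-Hochberg adjustment, threshold 0.05). These fold changes understate the change of low genes. Size factors were 0.697 to 1.21. mDNAcap counts were tested over all 7401 regions on log2(count + 1) in the same way. Exact permutation tests were two-sided. Each replicate is another pig, so that the p-values measure the spread between pigs and their libraries. The fits were tested on simulated data. Locus starts were read as counted from 0 and printed from 1, and 168 of 229 members found by name in RefSeq (Sscrofa11.1) had the same length there. Intervals of cufflinks are those of a single library and do not cover the spread between pigs.

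The genes named are the miRNA genes with the highest mean FPKM, those with an mDNAcap or RRBS region within 10000 bases and the genes that contain them, with exceptions marked. The members, lists and tests were chosen with earlier results of these data known. No miRNA sequences were used here.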

Additional observations from a re-analysis of the deposited data

Results flagged for a closer look

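In 108 groups of 5 pigs with values of a gene named in the report, 8 had a pig far from the other 4 by Dixon's criterion at the 95% level, which chance gives in about 1 of 20 groups. ssc-mir-126 was at 1301 FPKM after scaling in obese pig-572 and at 0 in the other obese pigs. ssc-mir-671 was at 0.000337 FPKM in obese pig-524 and at 0 in the others. Lean pig-402 stood apart for C9ORF5 (55.8 FPKM), lean pig-525 for MYH7B (0.285 FPKM) and lean pig-577 for GPC1 (15.5 FPKM), which holds ssc-mir-149. Among obese pigs, pig-433 stood apart for DYX1C1-CCPG1 (27.8 FPKM), pig-473 for COPZ2 (46.5 FPKM), which holds ssc-mir-152, and pig-572 for ZCCHC6 (36.8 FPKM).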

How the results depend on the processing

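Of the 253 miRNA genes, 3 were above 0 in any library, 1 was above 0 in all 10 pigs and 1 had a lower bound above 0 in some library. Leaving out each pig gave 2 to 3. No miRNA gene and no pathway gene passed the limma threshold under any alternative, including each pig left out. The count of containing genes was 0 to 2 when each pig was left out, and the 2 (PANK3 and C9ORF5) passed without lean pig-402, which is 4.26% of the 47 tested, beside 1.44% of all 10237 genes in that fit. The log2 difference of ssc-mir-4332 ran from -0.012, with the sign reversed, without that pig to 0.47 without lean pig-577. ssc-mir-126 was not tested without library B of pig-572. The number of mDNAcap regions near a miRNA gene was 20 at 10000 bases, 1 by overlap, 9 at 5000 bases and 94 at 50000 bases. Of the calls lower in obese pigs, 0 were left with scaling by the median of ratios and 0 with scaling by the mean read count per bin, chosen after seeing the data. The cause was not tested. The number of RRBS regions was 9, against 0 by overlap, 19 at 50000 bases, 18 with at least 3 pigs and 0 with a difference of at least 20 points. The other alternatives (size factors, pseudocounts, filter, trend, 5000 bases for RRBS) left these counts within 1.5 times. No paired analysis was possible because the lean and obese groups hold different pigs and the labels give no replicate numbers. The depth of single RNAseq libraries and RRBS regions cannot be read from the values used here.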
